A study of Mus musculus with 26 samples.

Results

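RNA-seq was compared between mouse neural progenitor cells (NPCs) in which the induced CTCF was either the full-length protein or a CTCF with a deletion in its first zinc finger (ΔZF1). The members are the 2 libraries of the WT rescue (NPC-WT) and the 2 libraries of the ΔZF1 rescue (NPC-ΔZF1), chosen by their labels, and they are 4 of the 26 RNA-seq libraries analysed here. Both lines derive from E14 mouse embryonic stem cells (ESCs) that share the same alterations. Both alleles of endogenous CTCF carry an mAID-eGFP degron tag, and OsTir1(F74G) is expressed from the Rosa26 locus, where it is heterozygous. The study's methods also describe an mCherry reporter knocked in at the Hb9 (Mnx1) locus of the parental clone. Flag-Halo CTCF can be induced with doxycycline from both alleles of the Tigre locus. The induced protein is WT CTCF in the NPC-WT line and ΔZF1 CTCF in the NPC-ΔZF1 line. Cells were plated on laminin and differentiated for 2 days in N2B27 medium, and both groups received 1 µM 5-Ph-IAA, which degrades the tagged endogenous protein, and 1 µg/ml doxycycline for 24 h. According to the study's methods each line is a single clone, so the CTCF protein and the clone cannot be told apart. The replicates are the study's own, and p-values measure the spread between these libraries.

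CTCF is a DNA-binding protein with a row of zinc fingers that recognises a conserved motif and, where it meets cohesin, anchors chromatin loops. Its first zinc finger lies at the edge of that row and has been reported to take part in binding RNA. NPCs are the dividing cells of the early nervous system, and ESCs that leave pluripotency can form them by way of an epiblast-like stage from which endoderm, mesoderm and surface ectoderm can also arise. The genes below are therefore grouped by the cell type or pathway they belong to.

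The libraries held 23386727 and 12101361 counts on genes in NPC-WT and 28730435 and 27077411 in NPC-ΔZF1. The 2 NPC-WT libraries differed from each other far more than the 2 NPC-ΔZF1 libraries did. Among 10477 genes that averaged 100 or more normalized counts (counts scaled by library size), 2881 differed by at least 0.5 on the log2 scale between the NPC-WT replicates, against 28 between the NPC-ΔZF1 replicates. This difference followed the GC content of the transcripts. With genes ordered by GC and split into 5 equal groups, in the group lowest in GC, the median of NPC-WT replicate 2 over replicate 1 was -0.54 on the log2 scale, and in the group highest in GC it was 0.47, while the same medians between the NPC-ΔZF1 replicates lay at -0.03 and -0.02. RNAs of the mitochondrial genome also set NPC-WT replicate 2 apart, with a summed normalized count of 106330 against 350840 in replicate 1 and 318550 and 346120 in NPC-ΔZF1. Results are therefore also given without NPC-WT replicate 2 and with the GC trend of each library removed; these checks of GC content were chosen after the data were seen.

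**Figure D1:**
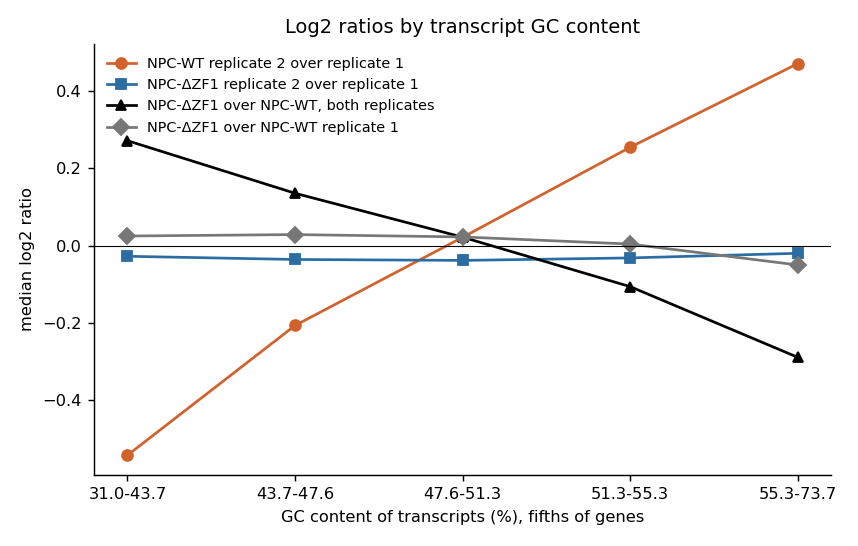
Median log2 ratios (vertical axis) in 5 equal groups of genes by the GC content of their transcripts in percent (horizontal axis), for genes outside chromosome 11 that averaged 100 or more normalized counts. The line for NPC-WT replicate 2 over replicate 1 climbs from -0.54 to 0.47, the line for the 2 NPC-ΔZF1 replicates stays flat, and the fold change of NPC-ΔZF1 over NPC-WT falls from 0.27 to -0.29 with both NPC-WT replicates but spans only -0.05 to 0.03 against NPC-WT replicate 1.

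The labelled cell type was checked against its markers, in CPM (counts scaled to the same library total). Sox1, a transcription factor of the early neural plate, stood at 16.9 and 21.2 CPM in NPC-WT and 38.7 and 40.6 in NPC-ΔZF1, above the 5.52 to 12.1 CPM of the ESC rescue libraries. Parental E14 NPCs, which carry none of the CTCF alterations and received no treatment, come from a separate set of deposited counts and had 74.96 to 85.9 CPM. Pax6 reached at most 4.14 CPM in the 4 NPC libraries, Pou3f2 at most 0.739 and Hes5 at most 0.0739, and no count of Fabp7 was found in any of them. In E14 NPCs these genes were low too, with Pax6 at 6.96 to 9.20 CPM and the others at most 0.681. Nes was higher, at 83.0 and 110 CPM in NPC-WT and 55.2 and 53.3 in NPC-ΔZF1, against 21.7 to 37.4 in the ESC rescue libraries and 19.8 to 25.6 in E14 NPCs. Sox2, shared with ESCs, stood at 25.6 to 52.0 CPM in the 4 NPC libraries. It was higher in the ESC rescue libraries, at 236 to 267 CPM, and in E14 NPCs, at 78.3 to 104. Most of the 10 neural progenitor markers were thus low or at 0 in both groups, while Sox1, Sox2 and Nes were not. Among these, only Sox1 stood above the ESC rescue libraries both in the 4 NPC libraries and in E14 NPCs. The study's flow cytometry found Sox1 protein in most cells of both rescue lines, differentiated without treatment. The libraries are called NPCs after their labels. ESC genes had fallen in both groups: Nanog, a pluripotency factor, stood at 33.6 to 66.9 CPM against 1318 to 1418 in the ESC rescue libraries.

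To determine which genes differ when ΔZF1 replaces WT CTCF in NPCs, all 8 rescue libraries, 2 for each line in each cell state, were fitted together with edgeR's quasi-likelihood F test, and 16641 genes were tested. A gene is called up-regulated or down-regulated in NPC-ΔZF1 where its p-value, adjusted by Benjamini and Hochberg's method, did not exceed 0.05 and its log2 fold change was 0.5 or more in size. By this rule NPC-ΔZF1 showed 2936 dysregulated genes (17.6%), with 1196 (7.19%) up-regulated and 1740 (10.5%) down-regulated. The 2 NPC-ΔZF1 libraries lay beyond both NPC-WT libraries for all 2936, as they did for 60.9% of all genes tested. Of the dysregulated genes, 1208 differed by at least 1 on the log2 scale and 227 by at least 2, and 172 of these 227 were up-regulated. The gap between the groups was wider than the gap between the NPC-WT replicates for 2237 of the 2936 genes. A part of the calls, 891 up-regulated and 1222 down-regulated genes, was set beside the E14 NPCs without a test. NPC-ΔZF1 was nearer to E14 NPCs for 644 of the rises and 804 of the falls, and NPC-WT for 247 and 418. Of these falls, 460 lay on chromosome 11, where NPC-ΔZF1 was nearer for 329. Off that chromosome NPC-ΔZF1 was nearer for 475 of 762 falls. The same share over all genes tested is not given here. Among the 12 largest rises off chromosome 11 named below, NPC-ΔZF1 was nearer for 4 and NPC-WT for 8. The cause was not tested.

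The number of calls depended on single libraries. Without NPC-WT replicate 1 there were 5870 calls, without NPC-WT replicate 2 there were 2967, and without NPC-ΔZF1 replicate 1 or 2 there were 943 and 968. A total of 777 genes were called in the same direction in the full fit and in all 4 fits that left out a library, 400 up-regulated and 377 down-regulated. With the GC trend of each library removed, 3126 genes were called and 2307 of the 2936 genes kept their call. When the spread was estimated from the 4 NPC libraries alone, 1222 genes were called and 1213 of the 2936 genes kept their call. Of the 25 gene lists described below, the number of called members moved by over 1.5 times for 8 lists without NPC-WT replicate 1, for 4 without replicate 2, and for 15 and 17 without NPC-ΔZF1 replicate 1 and 2. Genes named below were called in all 4 fits that left out a library unless stated otherwise. Counts of called list members are to be read beside the shares over all genes tested, 7.19% up-regulated and 10.5% down-regulated.

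**Figure D2:**
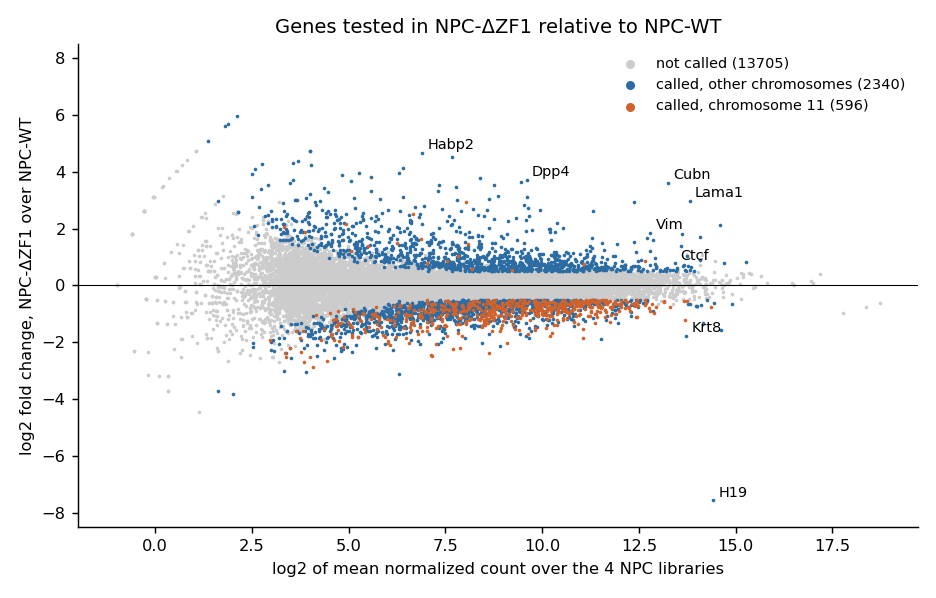
Log2 fold change of NPC-ΔZF1 over NPC-WT (vertical axis) against the log2 mean normalized count over the 4 NPC libraries (horizontal axis) for the 16641 genes tested, with genes called on chromosome 11 in orange, other called genes in blue and the rest in grey. Most orange points lie below 0, H19 lies far below all other abundant genes, and 1 gene, Hist1h4m, is outside the axis because it had no counts in NPC-WT.

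The gene list with the largest median rise was that of the primitive and visceral endoderm, the extraembryonic layer that surrounds the early embryo and takes up nutrients for it. Of 37 listed genes, 30 were tested, 24 were up-regulated and none were down-regulated, with a median log2 fold change of 2.40, against a median near 0 (-0.003) over all genes tested. The counts were 25 without NPC-WT replicate 2 and 25 with the GC trend removed, and 21 of the genes were called in every fit that left out a library. In bulk RNA, a larger share of endoderm cells and more endoderm RNA per cell cannot be told apart.

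Among the endoderm transcription factors, 10 of 11 rose. Gata6, which directs cells to the primitive endoderm, had 141 and 183 normalized counts in NPC-WT and 1451 and 1333 in NPC-ΔZF1, or a rise by 3.12 ± 0.20 on the log2 scale (SE, adjusted p = 2.33e-05, edgeR). Sox17, which acts after Gata6 in the same lineage, had 105 and 77.3 normalized counts in NPC-WT and 848 and 817 in NPC-ΔZF1 (3.16 ± 0.22, adjusted p = 3.32e-05). Gata4 rose by 2.45, and Foxa2 and Hnf4a, factors of endoderm and liver, by 2.68 and 3.96. The transcription factor of the list that was not called was Hhex, at 0.53 (adjusted p = 0.0731).

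Endocytic receptors made up most of the endoderm RNA. Cubn, which encodes cubilin, the receptor with which the visceral endoderm takes up proteins and vitamins, had 1666 and 1284 normalized counts in NPC-WT and 16932 and 19189 in NPC-ΔZF1 (log2 fold change 3.61 ± 0.45, adjusted p = 0.000816), a 12.2-fold rise. Dab2, an adaptor for endocytosis, went from 1392 and 1025 to 9644 and 9041 normalized counts, and Pdgfra, a growth factor receptor of the primitive endoderm, from 238 and 308 to 1664 and 1734. Lrp2, another large endocytic receptor, was abundant in all 4 libraries and was not called (0.22 ± 0.16, adjusted p = 0.351). Genes for secreted carriers rose as well. Apob, the protein of lipoprotein particles, had 47.8 and 40.9 normalized counts in NPC-WT and 573 and 683 in NPC-ΔZF1, while Ttr, the carrier of thyroid hormone, had 8.22 and 10.6 against 162 and 158. Afp, the fetal serum protein, stood at only 64.0 and 77.2 normalized counts in NPC-ΔZF1 and was not called without NPC-ΔZF1 replicate 2.

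The 12 endoderm genes used as cell type markers were, like the gene lists, chosen with earlier results of these data known. All 12 were called higher, and Lrp2 is not among them. They summed to 230 and 188 CPM in NPC-WT and to 1867 and 1985 CPM in NPC-ΔZF1, which describes the same rises and is no further test. In the E14 NPCs, set beside them without a test because they come from another table, the sum was 553 to 705 CPM, which lies between the 2 rescue groups. In the ESC rescue libraries it was 34.3 to 79.8 CPM.

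**Figure D3:**
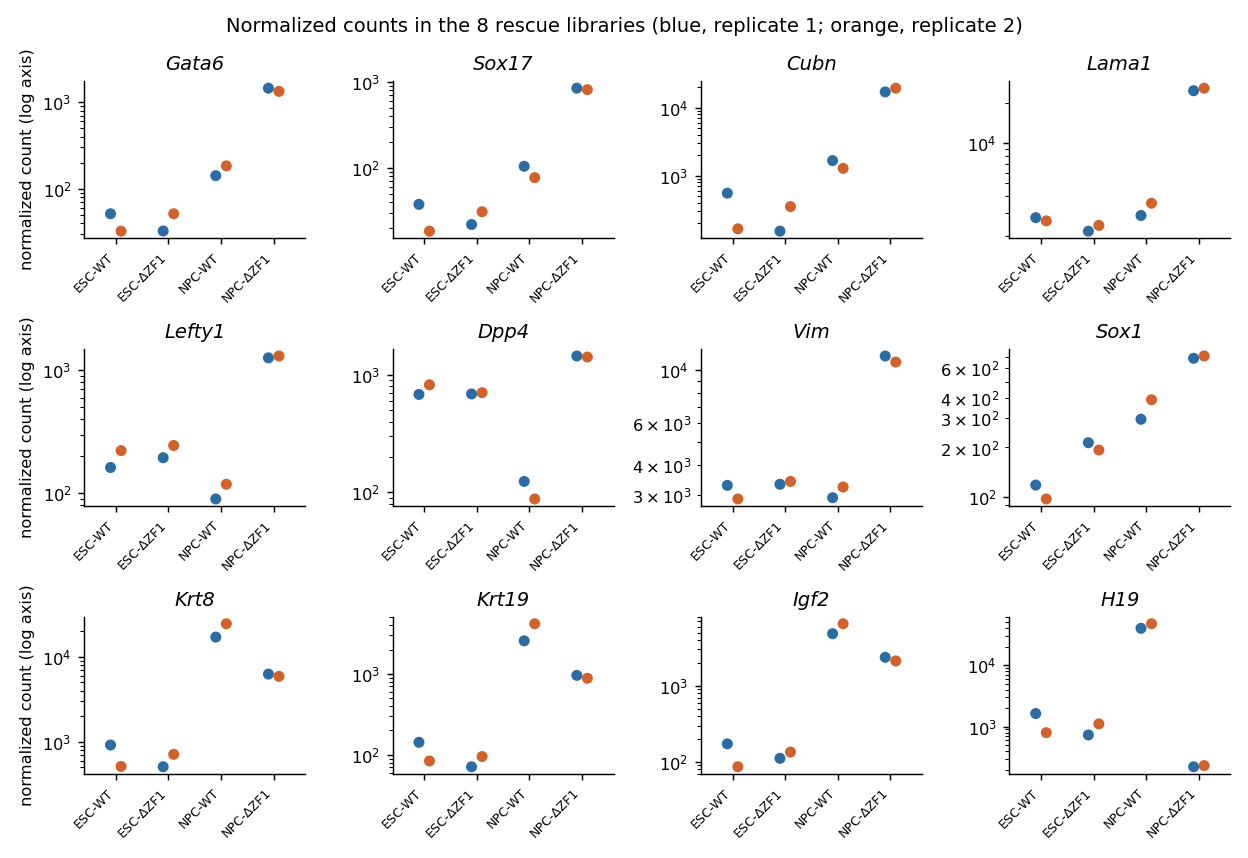
Normalized counts (log axis, a separate range for each gene) of 12 genes in each of the 8 rescue libraries, with replicate 1 in blue and replicate 2 in orange. Gata6, Sox17, Cubn, Lama1, Lefty1, Dpp4, Vim and Sox1 are higher in both NPC-ΔZF1 libraries than in both NPC-WT libraries, Krt8, Krt19, Igf2 and H19 are lower, and for H19 the NPC-WT libraries stand above every other group.

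Basement membrane genes moved in both directions. Of 36 genes tested, 12 rose and 6 fell, and the rises comprised 3 laminin chains, 3 genes for collagen IV chains and linkers, 4 for folding and crosslinking and 2 for cell surface receptors. Lama1, the laminin chain of the first embryonic basement membranes, had 2868 and 3547 normalized counts in NPC-WT and 24865 and 25987 in NPC-ΔZF1 (log2 fold change 2.99 ± 0.13, adjusted p = 6.47e-06), while in the ESCs it lay between 2186 and 2763 in both lines. Its partners Lamb1 and Lamc1 rose by 1.40 and 1.69, and the collagen IV chains Col4a1 and Col4a2 by 2.11 and 1.80. P4ha1, which hydroxylates collagen so that it can fold, went from 503 and 444 to 2141 and 2221 normalized counts. Other chains fell: Col4a6 had 23.2 and 44 normalized counts against 7.46 and 8.43, and the log2 fold changes of Col4a5 and of Lama3, a laminin chain of epidermis, were -1.47 and -0.87. None of these 3 was called in every fit that left out a library, and the number of falls ranged from 0 without either NPC-ΔZF1 library to 11 without NPC-WT replicate 1.

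Surface ectoderm genes were lower in part. This list holds transcription factors, keratins and junction proteins of the epithelium that becomes epidermis and of the neural border next to it. Of 26 genes tested, 14 were down-regulated and 2 up-regulated, with a median log2 fold change of -0.77, and 11 of the falls were called in every fit that left out a library. Chromosome 11 carries 5 of the 26 genes. With that chromosome left out of the fit, 11 of the other genes fell. Msx1, a homeobox gene of the neural border, went against the list, with 127 and 176 normalized counts in NPC-WT and 461 and 529 in NPC-ΔZF1.

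Simple-epithelium keratins were the most abundant genes of the list. Krt8 had 17056 and 24448 normalized counts in NPC-WT and 6253 and 5876 in NPC-ΔZF1, a fall by 1.77 ± 0.25 on the log2 scale (adjusted p = 0.00149). Krt19 fell from 2566 and 4162 to 959 and 884 normalized counts, and with the median of chromosome 11, where it lies, taken into account its log2 fold change was -1.30 (adjusted p = 0.00557). Krt18, the partner of Krt8, had 29519 and 45491 against 12842 and 12225, but the spread in NPC-WT was wide and it was not called without either NPC-ΔZF1 library. Both groups stood far above the ESCs, where Krt8 had 506 to 914 normalized counts, and above the E14 NPCs, where it had 24.5 to 37.5 CPM against 976 and 1333 CPM in NPC-WT and 350 and 335 in NPC-ΔZF1.

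Factors of the same epithelium followed. Gata2, which acts in non-neural ectoderm and trophoblast, fell from 4011 and 4884 to 1981 and 1872 normalized counts (-1.21 ± 0.13, adjusted p = 0.000407). Grhl3, which drives epidermal differentiation, fell from 1123 and 1278 to 544 and 533, and Tfap2c by 0.67. Dlx3, a homeobox gene of chromosome 11, fell by 1.52, and by 0.95 relative to the median of its chromosome (adjusted p = 0.00981). Cldn4, a tight junction protein, is a case where the lines differed in opposite ways: ΔZF1 was lower in NPCs (-1.25) and higher in ESCs (0.80).

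Some of the genes with the largest falls off chromosome 11 were also genes of epithelia or of extraembryonic tissue. Esx1, a homeobox gene of the X chromosome best known from the placenta, had 3891 and 5297 normalized counts in NPC-WT and 1231 and 1236 in NPC-ΔZF1 (log2 fold change -1.89 ± 0.15, adjusted p = 7.44e-05). Cebpb, a transcription factor, went from 574 and 991 to 167 and 190, with a wide spread in NPC-WT. In E14 NPCs these 2 genes lay at 8.29 to 13.6 and 28.3 to 29.8 CPM. Further large falls off chromosome 11 were those of H19 at -7.57, Lrp8os2 at -2.07, Foxn4 at -2.06, Rhox9 at -2.03, Il17rc at -1.97, Smoc1 at -1.84, Vgf at -1.84 and Acta1 at -1.78; Lrp8os2 is an antisense RNA, and because strand was not used in counting its reads cannot be told apart from those of an overlapping gene.

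Markers of other tissues were summed in the same way. The 6 markers of surface ectoderm summed to 2920 and 4055 CPM in NPC-WT and to 1224 and 1188 in NPC-ΔZF1, against 167 to 206 CPM in the E14 NPCs. Most of each sum in the 4 NPC libraries came from the keratins Krt8 and Krt18. Krt18 alone had 1689 and 2480 CPM in NPC-WT and 719 and 696 in NPC-ΔZF1. Of the 6 markers, 4 were called lower and 1 higher. Tfap2a went against the sum, at 13.7 and 11.7 CPM against 18.7 and 19.3, and Trp63 had at most 3.93 CPM. The 5 trophoblast markers summed to 263 and 248 CPM against 178 and 179, with 97 to 117 CPM in the E14 NPCs, and did not move together: Tfap2c fell, Gata3 was lower but not called without either NPC-ΔZF1 library, Eomes rose, Cdx2 was not called and Elf5, a defining trophoblast factor, had at most 0.299 CPM. The 5 mesoderm markers summed to 39.4 and 45.8 CPM against 20.8 and 20.6, of which Hand1, a gene of chromosome 11, made up 36.6 and 43.5 against 18.4 and 17.9; T, Tbx6 and Mixl1 had at most 1.81 CPM. The part of these cells in the differences of single genes was not tested.

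The largest difference among genes with counts in both groups and a mean of at least 100 was in H19, an imprinted noncoding RNA at chr7:142575529-142578143 (mm10). CTCF bound between H19 and the growth factor gene Igf2 on the maternal allele is the textbook insulator that keeps Igf2 silent there. H19 had 39565 and 46842 normalized counts in NPC-WT and 222 and 232 in NPC-ΔZF1, a 190-fold difference (log2 fold change -7.57 ± 0.37, adjusted p = 7.11e-06). In the ESCs it had 1628 and 795 in the WT line and 730 and 1107 in the ΔZF1 line, which did not differ by the test (adjusted p = 0.577). NPC-WT therefore stood far above the ESCs of both lines, and NPC-ΔZF1 below them. The E14 NPCs, at 62.3 to 95.5 CPM, lay between NPC-ΔZF1 at 12.4 and 13.2 CPM and NPC-WT at 2264 and 2554 CPM.

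Igf2 changed in the same direction as H19 and much less. It had 4840 and 6531 normalized counts in NPC-WT and 2368 and 2123 in NPC-ΔZF1, a fall by 1.34 ± 0.21 (adjusted p = 0.00241). Both groups were far above the ESCs, which had 86.3 to 173. The expression of each parental allele was not measured here. Of 52 imprinted genes tested, 13 rose and 9 fell, beside 7.19% and 10.5% of all genes tested. A group of 11 tested genes of chromosome 7, which holds H19, Igf2 and further imprinted genes of that region, held 6 of the falls and 2 of the rises. With the GC trend removed it held 4 falls. Phlda2, which restrains placental growth, was among the 6 falls, at -0.94 (909 and 1031 against 514 and 492 normalized counts). Whether the insulator between H19 and Igf2 acts on the other genes of this group was not tested. In the cluster of Dlk1 and Meg3, 3 of 5 genes rose; the noncoding RNAs Meg3 and Rian were among them, at 0.62 and 0.95, and neither was called without NPC-ΔZF1 replicate 2. Plagl1, a zinc finger gene, rose from 1194 and 1002 to 2513 and 2372 and was also higher in ESC-ΔZF1 (0.67, adjusted p = 0.0172). Mest, of the hydrolase family, rose from 29702 and 27074 to 50860 and 50774 normalized counts. Grb10, an adaptor that dampens insulin and growth factor signalling and lies on chromosome 11, had 4666 and 4559 against 8272 and 8341 (0.85 ± 0.09, adjusted p = 0.000439). Podxl, a sialomucin of the cell surface that the study examined alongside Grb10, had 7213 and 7422 against 10004 and 9408 and was not called (0.41, adjusted p = 0.105).

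Many genes of FGF signalling rose. This pathway signals through ERK kinases, and the feedback genes it induces are a common readout of it. Of 26 genes tested, 17 were up-regulated and none were down-regulated, with a median log2 fold change of 1.14, and 14 were called in every fit that left out a library. Of the ligands, 7 of 10 rose. Fgf15 had 4.48 and 4.55 normalized counts in NPC-WT and 72.1 and 70.7 in NPC-ΔZF1 (3.95 ± 0.32, adjusted p = 9.13e-05). Fgf3 went from 12 and 25.8 to 145 and 152, and Fgf5, a marker of the formative epiblast, from 27.7 and 28.8 to 159 and 159. Fgf8, which patterns the midbrain and the tail bud, rose by 3.27 from single-digit counts. Fgf4, the ligand of ESCs, was not called in the full fit, at 0.40 (adjusted p = 0.305).

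Of the feedback genes and targets of the FGF pathway, 8 of 11 rose. Spry4, an inhibitor of the pathway, had 168 and 253 normalized counts in NPC-WT and 1089 and 1041 in NPC-ΔZF1 (2.37 ± 0.17, adjusted p = 4.73e-05). Dusp6, a phosphatase of ERK, went from 756 and 809 to 1769 and 1760, and the transcription factor Etv5 from 724 and 955 to 1854 and 1724. E14 NPCs had more of both than either group. Dusp6 had 216 to 223 CPM there, against 43.3 and 44.1 in NPC-WT and 99.1 and 100 in NPC-ΔZF1. Etv5 had 270 to 272 CPM there, against 41.4 and 52.1 and against 104 and 98.1. The ligand Fgf3, at 2.65 to 3.99 CPM in E14 NPCs, lay between the groups. Of 5 receptors of the list tested, 2 were up-regulated and none were down-regulated. The main receptors Fgfr1 and Fgfr2 were not called, at -0.22 and -0.39.

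Nodal signalling specifies endoderm and the left side of the body. Its rises were in 2 ligands, 2 inhibitors, 1 of the co-receptors and receptors and 1 of the transducers and targets. The ligands were Nodal and Gdf3, the latter at 0.75. Nodal had 185 and 259 normalized counts in NPC-WT and 591 and 628 in NPC-ΔZF1 (1.48 ± 0.16, adjusted p = 0.000403). Lefty1, a secreted inhibitor of Nodal that Nodal itself induces, had 89.7 and 118 against 1262 and 1308, a 12.6-fold rise (3.66 ± 0.20, adjusted p = 8.67e-06). Its ESC level lay between, at 162 to 244 in the 4 ESC libraries. Lefty2, a second such inhibitor, rose by 2.43. In E14 NPCs Lefty1 stood above both groups, at 400 to 519 CPM against 5.13 and 6.45 in NPC-WT and 70.7 and 74.5 in NPC-ΔZF1. Nodal, at 90.3 to 97.2 CPM, and Lefty2, at 109 to 127, were also higher there than in both groups. Cfc1 of the list went the other way, with no count in E14 NPCs, and was not called without either NPC-ΔZF1 library. Of 20 genes of the list 6 rose and 1 fell; the fall was that of Smad3, which was not called without either NPC-ΔZF1 library.

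Neural genes moved in part. Of 13 genes of neural progenitors tested, 6 rose and 1 fell, 9 rose with the GC trend removed, and 3 rose without either NPC-ΔZF1 library. Sox1 had 296 and 388 normalized counts in NPC-WT and 691 and 713 in NPC-ΔZF1 (1.05 ± 0.16, adjusted p = 0.00192); it was higher in ESC-ΔZF1 than in ESC-WT as well, by 0.94. Sox2, shared by ESCs and neural progenitors, had 448 and 547 against 833 and 913. Vim, an intermediate filament of neural and endodermal cells alike, had 2920 and 3238 against 11428 and 10782 (1.85 ± 0.11, adjusted p = 1.42e-05). Nes, the intermediate filament that gives neural progenitors their usual marker, was lower, at 1451 and 2016 against 986 and 937, but was not called without either NPC-ΔZF1 library. Pax6 was not called (1.01, adjusted p = 0.0615).

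Other neural lists held fewer calls, to be read beside the 7.19% of all genes tested that rose and the 10.5% that fell. Among 19 early neuron genes tested, 3 rose and 2 fell, led by Ebf1 of chromosome 11, which went from 29.1 and 31.8 to 178 and 164 normalized counts. Among 58 axon guidance genes, 12 rose and 4 fell; all 9 receptors that were called rose, and 4 of the 7 ligands that were called fell. Without NPC-WT replicate 1 the list held 11 rises and 8 falls, with 7 receptors higher and 3 lower. Epha2, an ephrin receptor, had 991 and 1417 against 3812 and 3736 (1.65 ± 0.15, adjusted p = 0.000173), and Dcc, the netrin receptor, rose by 2.93 from at most 5.23 normalized counts in NPC-WT. In the list of brain and neural tube patterning 6 of 23 genes rose and 1 fell.

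Hox genes, which give cells their position along the body axis, rose in part, at low levels. Of 31 tested, 12 rose and none fell, with a median log2 fold change of 0.99, and 5 were called in every fit that left out a library. Hoxa10 had 14.9 and 21.2 normalized counts in NPC-WT and 108 and 111 in NPC-ΔZF1 (2.65 ± 0.25, adjusted p = 0.000178). It differed between the lines already as ESCs, with 10.8 and 16.1 against 229 and 202. Neighbouring Hoxa9 showed the same, at 8.97 and 10.6 against 40.4 and 35.7 in NPCs and at most 13.5 against 105 and 131 in ESCs. Hoxb1, which marks the hindbrain and responds to retinoic acid, rose from 143 and 150 to 397 and 398. In the list of mesoderm and caudal epiblast, 9 of 22 genes rose and 2 fell, with 4 rises called in every fit that left out a library. Nkx1-2, a homeobox gene of the caudal epiblast, went from 14.9 and 19.7 to 98.2 and 96.0, while T, the mesoderm factor brachyury, stood at 6.06 to 8.22 normalized counts in all 4 libraries. Hand1, a factor of extraembryonic mesoderm, had a log2 fold change of -1.15, was not called without either NPC-ΔZF1 library, and was at -0.58 (adjusted p = 0.221) relative to the median of chromosome 11, where it lies.

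**Figure D4:**
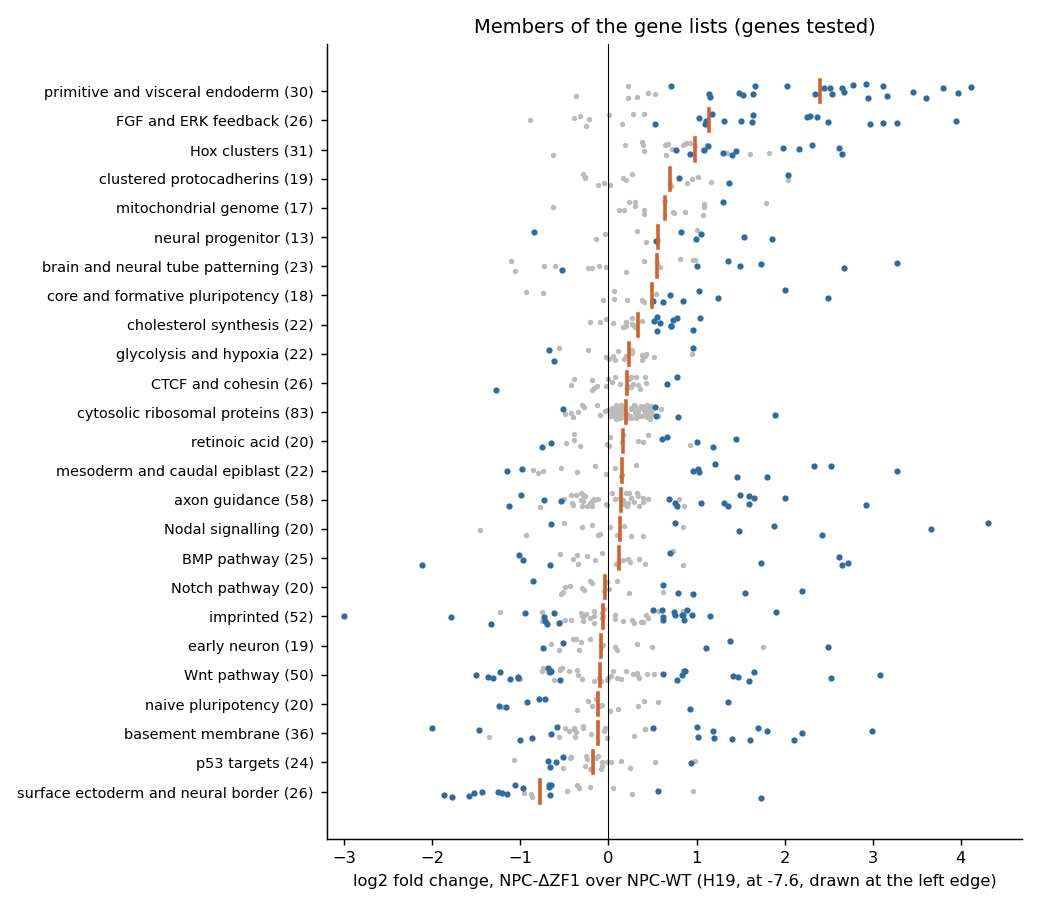
Log2 fold change of NPC-ΔZF1 over NPC-WT (horizontal axis) for each tested member of 25 gene lists, with called genes in blue, other genes in grey, the median of each list as an orange bar and the number tested in parentheses; H19 is drawn at the left edge. The lists of endoderm, FGF and Hox genes have medians of 2.40, 1.14 and 0.99, and the surface ectoderm list has the lowest median, -0.77.

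Among pluripotency genes, those of the core and formative states rose in part. Of 18 genes of core and formative pluripotency, 8 rose and none fell, and 5 of the rises were called in every fit that left out a library. L1td1 rose from 1171 and 1488 to 3192 and 3092 normalized counts, and the RNA-binding protein gene Lin28a from 9734 and 10120 to 16533 and 15788. Pou5f1, the central factor of pluripotency, had 856 and 1658 against 1849 and 1783 and was not called (0.54 ± 0.23, adjusted p = 0.124). Its log2 fold change was 1.07 without NPC-WT replicate 2 and 0.13 without replicate 1. Such fits hold 1 NPC-WT library, so the spread within NPC-WT does not enter them. Genes of naive pluripotency had no stable direction: of 20 tested, 2 rose and 5 fell, a count that was 2 and 10 without NPC-WT replicate 1 and 7 and 4 without replicate 2. Klf2 and Socs3 fell by 1.16 and 1.24, and Socs3, a target of the LIF pathway among others, lies on chromosome 11. Genes of the Zscan4 cluster on chromosome 7, which mark rare ESCs that resemble the cells of the early embryo, formed the longest run of neighbouring genes called in the same direction off chromosome 11, with 7 higher. Zscan4d had 29.9 and 33.3 normalized counts in NPC-WT and 142 and 110 in NPC-ΔZF1, but these genes are near-identical copies and reads can be split among them, so the values of single members are uncertain.

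Signalling by Wnt and BMP did not move in a single direction. Of 50 Wnt genes, 11 rose and 11 fell, beside 7.19% and 10.5% of all genes tested. Ligands made up 6 of the falls and 1 of the rises; Wnt6, a ligand of surface ectoderm, had 1368 and 2095 normalized counts in NPC-WT and 691 and 695 in NPC-ΔZF1. Of 8 antagonists 4 rose and none fell; Sfrp1 had 210 and 280 against 802 and 724 (1.66 ± 0.15, adjusted p = 0.000178). Of 25 BMP genes, 5 rose and 4 fell. Bmp6 had 49.3 and 89.4 normalized counts in NPC-WT and 412 and 400 in NPC-ΔZF1. The main BMP ligands of the embryo, Bmp2 and Bmp4, were not called.

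Genes of cholesterol synthesis showed a small rise in part. Of 22 tested, 10 were up-regulated and none were down-regulated, with a median log2 fold change of 0.34, and the count was 6 without NPC-WT replicate 2 and 3 or 4 without an NPC-ΔZF1 library. Msmo1 and Cyp51, enzymes of the late pathway, rose by 1.03 and 0.96, from 1934 and 1428 to 3425 and 3482 and from 1884 and 1549 to 3360 and 3346 normalized counts. Few members of the remaining lists were called in every fit that left out a library. In the full fit, where 7.19% of all genes tested rose and 10.5% fell, 5 of 20 Notch genes rose and 1 fell. For retinoic acid, 5 of 20 genes rose and 2 fell. Further, 1 of 24 p53 targets rose and 4 fell, 1 of 22 genes of glycolysis and hypoxia rose and 2 fell, 3 of 19 clustered protocadherins rose, and 4 of 83 cytosolic ribosomal protein genes rose and 1 fell, which became 16 and 4 without NPC-WT replicate 1 and 12 and 2 with the GC trend removed. Of 17 genes of the mitochondrial genome 1 was called, which became 12 without NPC-WT replicate 1.

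The rescue itself was checked through Ctcf. Gene counts cannot tell the endogenous gene from the induced copy, and the deleted part cannot be seen in them. Ctcf had 8368 and 7913 normalized counts in NPC-WT and 14077 and 13848 in NPC-ΔZF1 (0.78 ± 0.09, adjusted p = 0.000666), and 9914 and 10179 against 15168 and 14660 in the ESCs (0.57, adjusted p = 0.0161). The ΔZF1 line thus held about 1.72-fold more Ctcf RNA in NPCs. At the protein level, the study's Western blot showed similar amounts of the induced Flag-Halo CTCF in both rescue lines. Of the other 25 genes for cohesin and its regulators or for other loop anchor proteins, Stag2 was called higher and Rec8, a meiotic cohesin subunit, lower, from 762 and 1120 to 385 and 386. The cohesin subunits Rad21, Smc1a and Smc3 were not called, at 0.13, 0.36 and 0.33. Without NPC-WT replicate 1, 11 of the 26 genes were called higher and 3 lower. Stag2 was not called with NPC-WT replicate 2 or either NPC-ΔZF1 library left out, nor with the GC trend removed (0.25).

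Chromosome 11 stood apart from all other chromosomes. Of its 1334 tested genes 579 were down-regulated and 17 up-regulated, so that 44.7% were called, against 12.1% to 18.9% on the other 18 autosomes. The median log2 fold change of its genes was -0.57, against -0.04 to 0.15 on those autosomes, and each of the 4 pairs of an NPC-ΔZF1 and an NPC-WT library gave a value between -0.64 and -0.50. The shift ran along the whole chromosome: the medians of all 13 windows of 10 Mb were negative, from -0.70 to -0.26. Chromosome 11 held 11.5% and 11.6% of the counts in NPC-WT and 8.60% and 8.53% in NPC-ΔZF1. The share was 8.73% to 8.83% in E14 NPCs and 12.2% and 12.1% in ESC-WT, so it was the WT rescue line, in both states, that stood apart from the parental cells. DNA copy number was not measured here, and whether it differs between the lines was not tested.

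**Figure D5:**
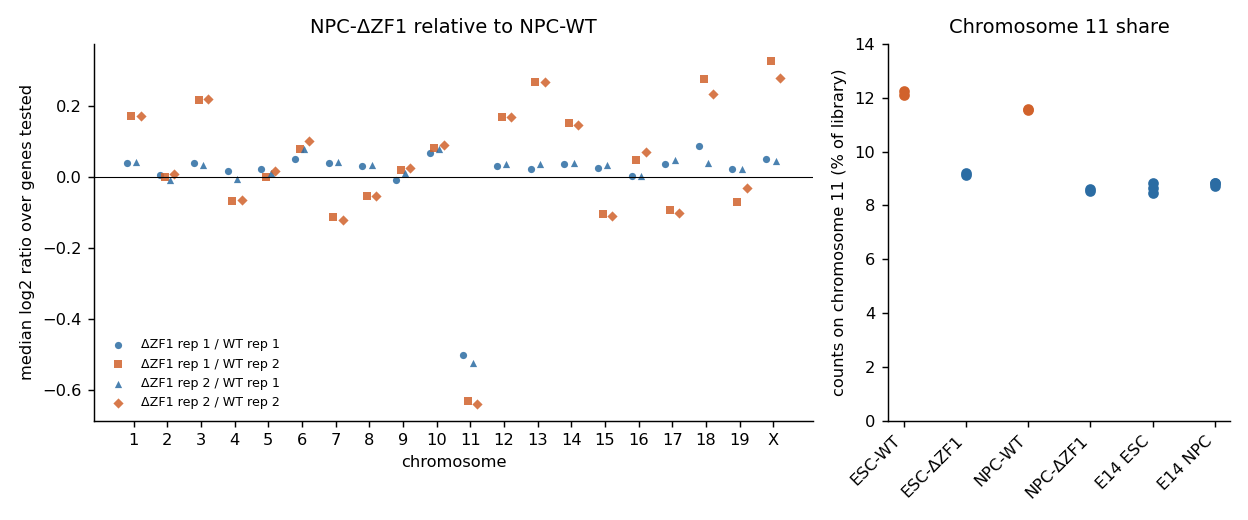
Left, median log2 ratio over tested genes (vertical axis) on each chromosome (horizontal axis) for the 4 pairs of an NPC-ΔZF1 and an NPC-WT library; only chromosome 11 lies between -0.64 and -0.50. Right, the share of each library's counts on chromosome 11 in percent, from 11.5% upward in the WT rescue line and at most 9.20% in the ΔZF1 rescue line and in parental E14 cells.

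Off chromosome 11, 1179 genes were up-regulated and 1161 down-regulated among 15307 tested, but with chromosome 11 left out of the fit, and so of the scaling, the calls were 976 and 1270. When the median shift of chromosome 11 was taken into the fit, 2419 genes were called, 1222 up-regulated and 1197 down-regulated. The 4 largest falls on the chromosome, Myl4, Rhbdl3, Osbpl7 and Fmnl1, went beyond its median, with log2 fold changes of -2.47, -2.46, -2.37 and -2.25. Osbpl7, which encodes a lipid-binding protein, had 544 and 779 normalized counts in NPC-WT and 126 and 128 in NPC-ΔZF1 (-2.37 ± 0.18, adjusted p = 5.78e-05), and was still lower by 1.80 relative to the chromosome. Myl4, a myosin light chain of embryonic muscle, fell from 184 and 300 to 52.8 and 32.4. Among the 17 rises were Ebf1, Hoxb1, Grb10 and Pipox, an enzyme that breaks down pipecolic acid, at 61.3 and 51.5 against 178 and 178.

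The remaining genes with large rises belong to several functions. Dpp4, a peptidase of the cell surface, had 124 and 87.9 normalized counts in NPC-WT and 1456 and 1426 in NPC-ΔZF1 (3.73 ± 0.17, adjusted p = 6.47e-06). Both ESC lines stood between, at 685 to 827, so Dpp4 was lower than in ESCs in NPC-WT and higher in NPC-ΔZF1. Lgmn, a lysosomal protease, rose from 620 and 790 to 4358 and 4335. Habp2, a secreted protease, rose from 9.72 and 7.58 to 232 and 226, Tfec, a transcription factor, from 15.7 and 18.2 to 412 and 362, and Srgn, a proteoglycan of secretory granules, from 69.5 and 65.2 to 795 and 792. Klb, the co-receptor for endocrine FGFs, went from 35.1 and 10.6 to 311 and 286. Spink1, a protease inhibitor, and Hkdc1, a hexokinase, completed the 12 largest rises off chromosome 11 among genes averaging 100 or more normalized counts, at 3.46 and 3.32. Hist1h4m had no count in either NPC-WT library and 963 and 1052 counts in NPC-ΔZF1, but it had 1 and 677 counts in the 2 ESC-ΔZF1 libraries. It is a histone H4 gene with near-identical copies among which reads can be assigned differently, and no fold change is given for it.

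To see whether ΔZF1 had the same effect before differentiation, the difference between its effects in NPCs and in ESCs was tested for every gene. It was called for 449 of 16641 genes (2.70%), and 377 of these were dysregulated in NPCs. For Lama1 the log2 fold change was 2.99 in NPCs and -0.22 in ESCs, a difference of 3.21 ± 0.17 (adjusted p = 9.09e-05). For H19 the difference was -7.20 ± 0.44 (adjusted p = 0.000101). Gata6, Sox17, Cubn, Spry4, Lefty1, Dpp4 and Vim also passed this test, each with an ESC log2 fold change between -0.40 and 0.16. Sox1, Hoxa10, Plagl1 and Ctcf did not pass it, and each of these 4 was called higher in ESC-ΔZF1 too. The keratins Krt8 and Krt19 did not pass either (adjusted p = 0.0558 and 0.0915), so their effect cannot be called particular to NPCs.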

How the data were processed

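RNA was sequenced from total RNA after removal of ribosomal RNA. Reads had been aligned with STAR to mm10 and counted per gene with featureCounts without regard to strand, and the deposited values are raw gene counts; the versions and the gene annotation are not given in the sources used here. The authors also deposited counts for lines with truncated RNAs in a separate table, from which the parental E14 libraries were taken as CPM; 3 columns of no sample described here were not used. The members and gene lists were chosen with earlier results of these data known. Genes were tested with edgeR 4.0.16 (R 4.3.3) by the quasi-likelihood F test, with TMM normalization, filterByExpr and 1 mean per group over all 8 rescue libraries; Benjamini-Hochberg adjustment covered all 16641 genes tested, and SE is the log2 fold change divided by the square root of F. Normalized counts are counts scaled by TMM library sizes. In fits without a library, the lone library of its group was assumed to vary like the other groups. The script was tested on simulated counts. Of 55291 symbols, 53180 (96.2%) matched 1 GENCODE M21 gene, which gave chromosomes and the GC content of transcripts. Alternatives were DESeq2 1.42.0, RLE scaling, other filters and cutoffs, the NPC libraries alone, a replicate block, chromosome 11 left out or its median in the offsets, each NPC library left out and, chosen after seeing the data, the GC trend of each library in the offsets.

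Named genes were, at a mean of at least 100 normalized counts with non-overlapping groups, the 12 largest rises and falls off chromosome 11 and the 4 largest on it, leaving out predicted genes, the first 3 genes and up to 4 largest calls of each list, genes that the study names, and genes that differ most between the NPC-WT replicates; some genes that meet this rule are not reported here. These genes were named after their values were seen: Pax6, Nanog, Hhex, Dab2, Pdgfra, Lrp2, Afp, Lamb1, Lamc1, Col4a2, Col4a5, Gata2, Grhl3, Cldn4, Gata3, Phlda2, Meg3, Rian, Plagl1, Mest, Spry4, Dusp6, Etv5, Fgfr1, Fgfr2, Smad3, Nes, Hoxa9, Hand1, Zscan4d and Wnt6, as well as the marker genes given in CPM. Total counts ranged from 12101361 to 28730435 in the NPC rescue libraries and from 2935069 to 6513043 in the E14 NPC libraries, so low genes were measured less precisely in the latter.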

Additional observations from a re-analysis of the deposited data

Results flagged for a closer look

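The effect of ΔZF1 differed between NPCs and ESCs, by edgeR's test of that difference, for 449 genes, 264 with a more positive effect in NPCs and 185 with a more negative one. The values below are log2 differences, the effect in NPCs minus the effect in ESCs, for genes named above that passed it. Among endoderm genes the differences were Cubn 4.01, Dab2 3.53, Apob 3.59, Hnf4a 3.31, Foxa2 3.21, Sox17 3.06, Gata6 3.00, Gata4 2.73 and Pdgfra 2.58. Basement membrane genes that passed were Lama1 3.21, P4ha1 2.29, Col4a1 2.08, Col4a2 1.76, Lamb1 1.68 and Lamc1 1.17. In Nodal and FGF signalling the differences were Fgf15 3.55, Fgf3 3.53, Lefty1 3.50, Lefty2 2.70, Spry4 2.29, Nodal 1.07 and Etv5 0.98. Epithelial genes and genes of surface ectoderm had differences of Cldn4 -2.05, Gata2 -1.13 and Grhl3 -1.04. Imprinted genes that passed were H19 -7.20, Phlda2 -1.24 and Grb10 0.80. Further genes of chromosome 11 gave Fmnl1 -1.92, Myl4 -1.98, Osbpl7 -1.20 and Pipox 1.90. Pluripotency and neural genes gave Zscan4d 1.80, Vim 1.72, L1td1 1.22, Sox2 0.90, Epha2 1.89 and Nkx1-2 2.37. The other genes were Tfec 4.76, Klb 4.01, Dpp4 3.85, Spink1 3.38, Srgn 3.09, Lgmn 2.53, Bmp6 2.44, Cyp51 0.77, Acta1 -1.61, Il17rc -1.79 and Cebpb -1.94. Counts of such genes ranged from 66 without either NPC-ΔZF1 library to 4673 without NPC-WT replicate 1, with 1666 without NPC-WT replicate 2, and no gene was checked for a sample that stands apart within its group, since each group holds 2 libraries.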

How the results depend on the processing

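The 2936 genes dysregulated in NPC-ΔZF1 became 1222 with the 4 NPC libraries fitted alone, 1455 at an adjusted p of at most 0.01, 1208 with a log2 fold change cutoff of 1, and 943 to 5870 when a library was left out (without NPC-ΔZF1 replicate 1 and without NPC-WT replicate 1); the share of higher calls, 40.7%, was 50.8% without NPC-ΔZF1 replicate 2. The 449 genes whose effect differed between NPCs and ESCs became 710 with DESeq2, 1139 with no filter on low counts, 74 at an adjusted p of at most 0.01, 1245 with the GC trend removed, 1682 with it removed and NPC-WT replicate 2 left out, and 66 to 4673 when a library was left out. The median of chromosome 11 was -0.47 with no filter and -0.62 to -0.52 when a library was left out. The cause of these changes was not tested. None of the 2936 calls was turned in direction by DESeq2, RLE scaling or removal of the GC trend. Genes that were not called turned in sign as follows, when a library was left out: Fgf4 from -0.12 without NPC-WT replicate 1 to 0.95 without replicate 2, Fgfr1 from -0.45 to 0.031, Nanog from -0.55 to 0.50, Rad21 from 0.30 to -0.038 and T from 0.26 to -0.18, with 0.012 for T without NPC-ΔZF1 replicate 2. With the GC trend removed, Rad21 was at -0.056 and T at 0.026, and with NPC-WT replicate 2 also left out Fgfr1 was at 0.077, Nanog at 0.49 and Rad21 at -0.048.

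Same-numbered libraries did not deviate together (correlations of -0.137 to 0.132, and -0.0147 between NPC-WT and NPC-ΔZF1), so the numbers were not taken as pairs. With the replicate block, 2740 genes were called, 322 genes differed between NPCs and ESCs, and the median of chromosome 11 was -0.56. Low counts limit the Hox, Fgf8, Ttr and Dcc values, and the depth of NPC-WT replicate 2 was the lowest of the 4 libraries.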
